A study of Mus musculus with 6 samples.

Results

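The sirtuins are a family of protein deacylases that spend NAD+ to remove acetyl and longer acyl groups from lysines. The members described here were all rows of the deposited gene table with the symbols *Sirt1* to *Sirt7*, 7 of 24532 genes. RNA of gastrocnemius (GAS) muscle, a mixed calf muscle rich in fast fibers, was sequenced in 2 groups of 3 mice, labelled WT and *Sirt6* KO, with 1 library per animal. All animals were C57BL/6 males of about 20 weeks. Both groups carried *Sirt6* flox/flox alleles, and the KO animals also carried *Myl1-Cre*. This driver acts from myoblast differentiation in the embryo onward and mainly in type II (fast) fibers, so a whole-muscle library also held cells with an intact *Sirt6*, and no group had the driver without the floxed alleles. The study deleted *Sirt6* in muscle to ask what it does for fiber type. The comparison of the family asks whether the paralogs moved when *Sirt6* was the target.

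*Sirt1*, *Sirt6* and *Sirt7* encode the mainly nuclear sirtuins, *Sirt2* the mainly cytosolic one, and *Sirt3*, *Sirt4* and *Sirt5* the mitochondrial ones. Nuclear sirtuins act on histones and transcription factors, and the mitochondrial ones on enzymes of fuel oxidation. In muscle, Sirt1 is best known for deacetylating PGC-1α, the coactivator of mitochondrial biogenesis, and Sirt6 for deacetylating histone H3 at genes of glucose use.

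The total count on genes lay between 44845763 and 63016899 per library, with WT 1 and WT 2 the shallowest. After TMM scaling, 13801 genes had enough reads for edgeR's quasi-likelihood test, all 7 sirtuins among them. Levels are given as normalized CPM, where 1 count was worth between 0.0165 and 0.0212 CPM, or as the deposited TPM, which is scaled to transcript length and was used wherever genes were compared with each other. The muscle markers *Acta1*, *Ckm*, *Myh4*, *Myh1*, *Myh2*, *Mb*, *Ttn* and *Des* summed to between 126500 and 195500 CPM, so the libraries carried the defining transcripts of the labelled tissue. Among the marker lists the libraries differed most in slow fiber markers. The sum of *Myh7*, *Myl2*, *Myl3*, *Tnnt1*, *Tnni1*, *Tnnc1* and *Atp2a2* was 3570, 2944 and 132 CPM in WT 1, 2 and 3, and 359, 2099 and 500 CPM in *Sirt6* KO 1, 2 and 3. The number of genes called depended on single libraries. All 6 gave 1084 genes higher and 1158 lower, against 2363 and 2219 without WT 3, 6 and 2 without *Sirt6* KO 1, 8 and 5 without *Sirt6* KO 3, 96 and 153 without WT 2, 181 and 259 without WT 1, and 431 and 442 without *Sirt6* KO 2.

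Of the 7 sirtuins, 1 was higher (*Sirt6*) and 1 lower (*Sirt1*) in *Sirt6* KO than in WT by the labels, with an adjusted p under 0.05. Over all genes tested, 16.2% passed that threshold, 7.85% in the higher and 8.39% in the lower direction. With 7 members, 1 gene in each direction is close to those shares, so the family as a whole did not stand out and the results concern single genes. The values of the groups did not overlap for 3 of the 7 (*Sirt1*, *Sirt6* and *Sirt7*), against 40.0% of all genes tested. That count was near the share of all genes. The 3 did not move together, with *Sirt6* higher and *Sirt1* and *Sirt7* lower. The median log2 fold change of the 7 was 0.07, beside -0.02 over all genes tested.

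*Sirt6* (chromosome 10, 81621787 to 81627792 on GRCm38.p6, minus strand) was the targeted gene. Its count was 138, 105 and 165 reads in WT 1, 2 and 3, and 457, 451 and 368 reads in *Sirt6* KO 1, 2 and 3. This corresponded to 2.77, 2.23 and 2.88 CPM against 7.81, 7.44 and 6.68 CPM. Every library labelled *Sirt6* KO was above every WT library, which goes against the label, and every direction given here rests on the labels as deposited. The mean was 2.62 ± 0.349 CPM (SD, n = 3) in WT and 7.31 ± 0.575 CPM (SD, n = 3) in *Sirt6* KO. The edgeR fit, adjusted by Benjamini-Hochberg over all genes, gave a log2 fold change of 1.48 (standard error 0.17, 95% interval 1.07 to 1.88, adjusted p = 0.0113). That was the 53rd smallest p of 13801 genes and the 113th largest increase among the 1084 genes called higher. The adjusted p was 0.0606 without *Sirt6* KO 1 and 0.065 without *Sirt6* KO 3. Counts per gene do not separate the floxed exons from those that remain. The transcript length implied by each library's count and FPKM moved by -0.0028 on the log2 scale between the groups, beside a median absolute shift of 0.0033 over 3998 genes with several transcripts. That length rests on the annotated transcripts, so it cannot tell whether the floxed exons were missing.

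*Sirt1* (chromosome 10, 63319005 to 63339035, minus strand), the nuclear deacetylase of PGC-1α, FoxO factors and p53, moved in the opposite direction. Its level was 17.7, 17.5 and 19.0 CPM in WT 1, 2 and 3, and 9.54, 10.1 and 12.5 CPM in *Sirt6* KO 1, 2 and 3. The WT values were tightly grouped, and every *Sirt6* KO value lay below them. The log2 fold change was -0.75 (standard error 0.14, 95% interval -1.07 to -0.43, adjusted p = 0.0178 by edgeR with Benjamini-Hochberg adjustment), so WT held 1.68 times as much. The call was near the threshold. The adjusted p was 0.0588 without WT 1, 0.06 without WT 2, 0.0145 without WT 3, 0.0714 without *Sirt6* KO 1, 0.0566 without *Sirt6* KO 2 and 0.0699 without *Sirt6* KO 3. The log2 fold change kept its sign in each of these, between -0.88 and -0.67.

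*Sirt7* (chromosome 11, 120618371 to 120625014, minus strand) encodes the nucleolar sirtuin, known for its role at ribosomal DNA. Its level was 7.56, 5.58 and 5.57 CPM in WT 1, 2 and 3, and 4.85, 4.06 and 5.16 CPM in *Sirt6* KO 1, 2 and 3. The groups did not overlap, but the nearest libraries, WT 3 and *Sirt6* KO 3, were close and WT 1 stood above the rest. The log2 fold change was -0.41 (standard error 0.19, 95% interval -0.86 to 0.03, adjusted p = 0.168 by edgeR), which did not pass the threshold. Without WT 1 it was -0.24. A two-sided exact permutation test of the log2 level gave p = 0.1 for each of *Sirt1*, *Sirt6* and *Sirt7*, the smallest value that 3 animals against 3 allow.

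*Sirt2* (chromosome 7, 28766752 to 28788665, plus strand), known as a deacetylase of tubulin, was the most abundant sirtuin. Its level was 90.4, 93.6 and 104 CPM in WT 1, 2 and 3, and 92.2, 96.5 and 94.9 CPM in *Sirt6* KO 1, 2 and 3. The *Sirt6* KO values lay within the WT range. The log2 fold change was -0.02 (standard error 0.10, 95% interval -0.26 to 0.22, adjusted p = 0.893 by edgeR). On the TPM scale the groups did not overlap, at 118, 115 and 109 TPM against 105, 105 and 102 TPM, and limma on log2(TPM + 1) gave a difference of -0.13 (adjusted p = 0.223), where the median over all genes was -0.08.

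The mitochondrial sirtuins overlapped between the groups. *Sirt3* (chromosome 7, 140863663 to 140882309, minus strand), the main deacetylase of the mitochondrial matrix, was at 20.9, 21.7 and 12.9 CPM in WT 1, 2 and 3, and at 17.0, 23.5 and 18.2 CPM in *Sirt6* KO 1, 2 and 3. *Sirt5* (chromosome 13, 43365389 to 43395203, plus strand), which removes succinyl, malonyl and glutaryl groups, was at 7.08, 8.53 and 6.06 CPM in WT and at 7.06, 10.6 and 7.26 CPM in *Sirt6* KO. *Sirt4* (chromosome 5, 115478006 to 115490264, minus strand), known for its action on glutamate dehydrogenase, was at 7.54, 7.76 and 6.02 CPM in WT and at 6.58, 7.84 and 7.90 CPM in *Sirt6* KO. In all 3 genes WT 3 was the lowest library of the 6. The log2 fold changes were 0.08 for *Sirt3*, 0.07 for *Sirt4* and 0.20 for *Sirt5*, with adjusted p-values by edgeR of 0.818, 0.798 and 0.528.

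**Figure D1:**
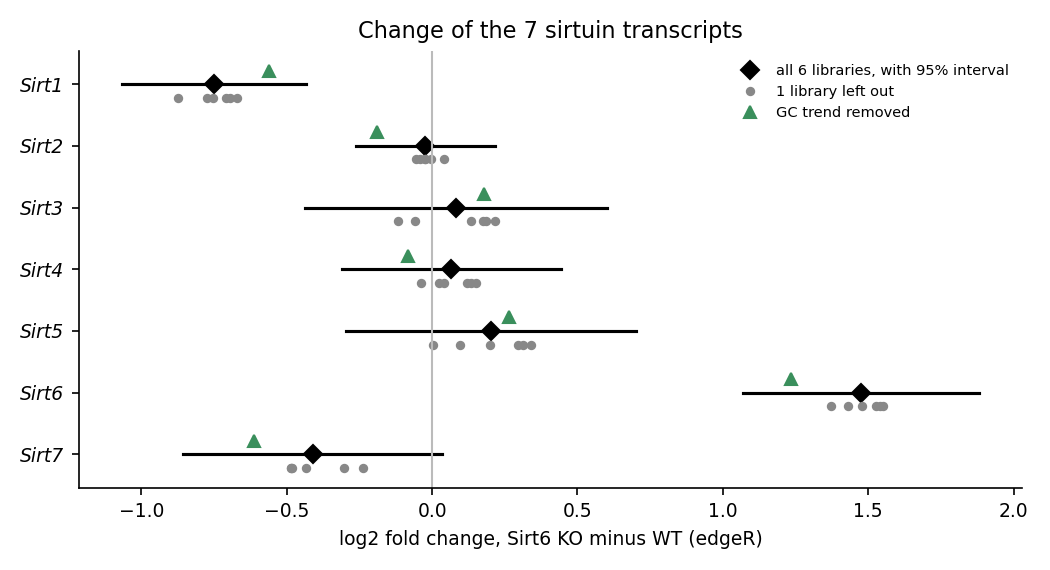
Log2 fold change (Sirt6 KO minus WT) of each sirtuin on the horizontal axis. Diamonds and lines are the edgeR estimates from 6 libraries with 95% intervals, grey points leave 1 library out, and green triangles have the GC trend removed. Sirt6 at 1.48 and Sirt1 at -0.75 are the members whose intervals exclude 0.

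No paralog was called higher by edgeR or DESeq2 when *Sirt6* was the labelled target, 0 of the 6 had an increase at an unadjusted p under 0.05, and the intervals give the range of increases that these libraries leave possible. The upper end of the 95% interval of the *Sirt6* KO to WT ratio was 0.74 for *Sirt1*, 1.02 for *Sirt7*, 1.16 for *Sirt2*, 1.36 for *Sirt4*, 1.52 for *Sirt3* and 1.63 for *Sirt5*. Since the *Sirt6* transcript itself was higher under the *Sirt6* KO label, these ratios do not describe paralogs beside a lowered *Sirt6* transcript. The labels give 3 replicates per group, and the reporting summary speaks of biological replicates, read here as 3 animals. The edgeR p-values rest on the spread between these libraries, with part of its estimate shared over all genes.

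Ordered by TPM, WT muscle held *Sirt2*, *Sirt3*, *Sirt5*, *Sirt1*, *Sirt4*, *Sirt7* and *Sirt6*, from high to low. The WT means were 114, 28.7, 11.7, 10.1, 10.1, 8.05 and 3.36 TPM in that order. *Sirt2* alone made up between 57.6% and 67.7% of the summed sirtuin TPM of a library. The ranges of neighbours overlapped from *Sirt5* to *Sirt7*, while *Sirt2*, *Sirt3* and *Sirt6* were apart from their neighbours. Within each WT library, however, *Sirt5* was above *Sirt4* and *Sirt7* ranked 6th, so only the place of *Sirt1* among them changed between libraries. In the libraries labelled *Sirt6* KO the order was *Sirt2*, *Sirt3*, *Sirt5*, *Sirt4*, *Sirt6*, *Sirt1* and *Sirt7*, with means of 104, 27.7, 12.3, 9.66, 8.68, 5.56 and 5.53 TPM. *Sirt4* and *Sirt6* overlapped there, as did *Sirt1* and *Sirt7*. *Sirt6* ranked 7th in every WT library, and 4th, 5th and 5th in *Sirt6* KO 1, 2 and 3. *Sirt1* ranked 5th, 5th and 3rd in WT and 7th, 6th and 6th in *Sirt6* KO.

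**Figure D2:**
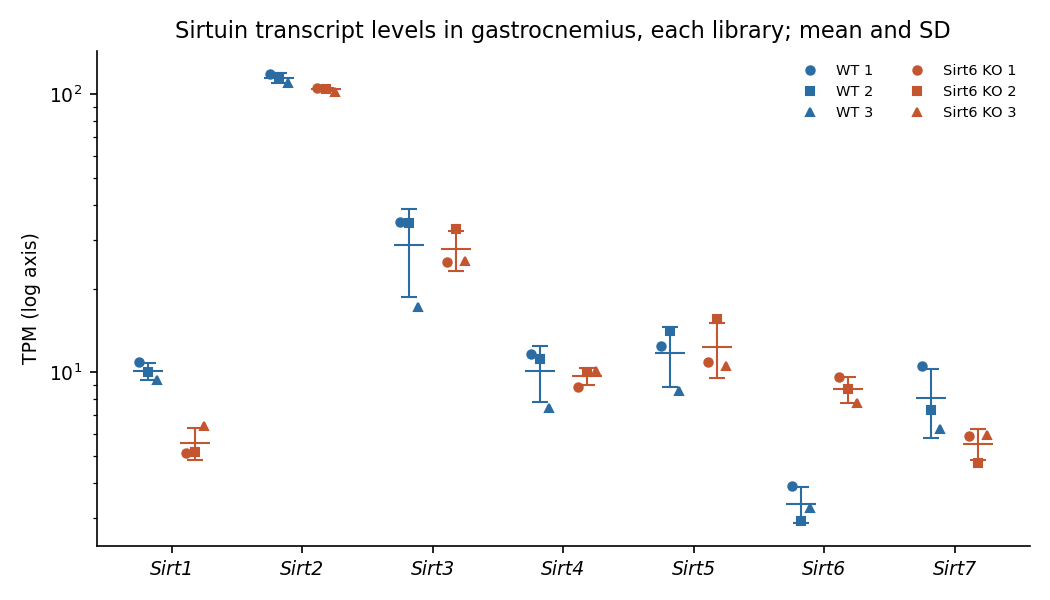
Deposited TPM of each sirtuin on a log axis, with 1 point per library, a horizontal bar for the mean of 3 libraries and whiskers for the SD. Sirt2 lies above 100 TPM in every library, and Sirt6 moves from the lowest place in WT (2.93 to 3.90 TPM) to 7.75 to 9.62 TPM in Sirt6 KO.

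The nuclear sirtuins changed in make-up more than in amount. The summed TPM of *Sirt1*, *Sirt6* and *Sirt7* was 25.3, 20.3 and 18.9 in WT 1, 2 and 3, and 20.7, 18.6 and 20.1 in *Sirt6* KO 1, 2 and 3, so the sums overlapped. Within each library the TPM ratio of *Sirt6* to *Sirt1* was 0.36, 0.291 and 0.346 in WT, and 1.88, 1.68 and 1.21 in *Sirt6* KO. *Sirt1* was thus the more abundant of the pair in every WT library and *Sirt6* in every library labelled *Sirt6* KO. The mean ratio was 0.332 ± 0.0362 (SD, n = 3) in WT and 1.59 ± 0.346 (SD, n = 3) in *Sirt6* KO. *Sirt6* made up 1.81% ± 0.274 of the summed sirtuin TPM in WT and 5.01% ± 0.554 in *Sirt6* KO (SD, n = 3), and *Sirt1* made up 5.45% ± 0.345 and 3.22% ± 0.522. The mitochondrial sum was 58.8, 59.6 and 33.2 TPM in WT and 44.7, 58.4 and 45.8 TPM in *Sirt6* KO, with no separation of the groups.

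**Figure D3:**
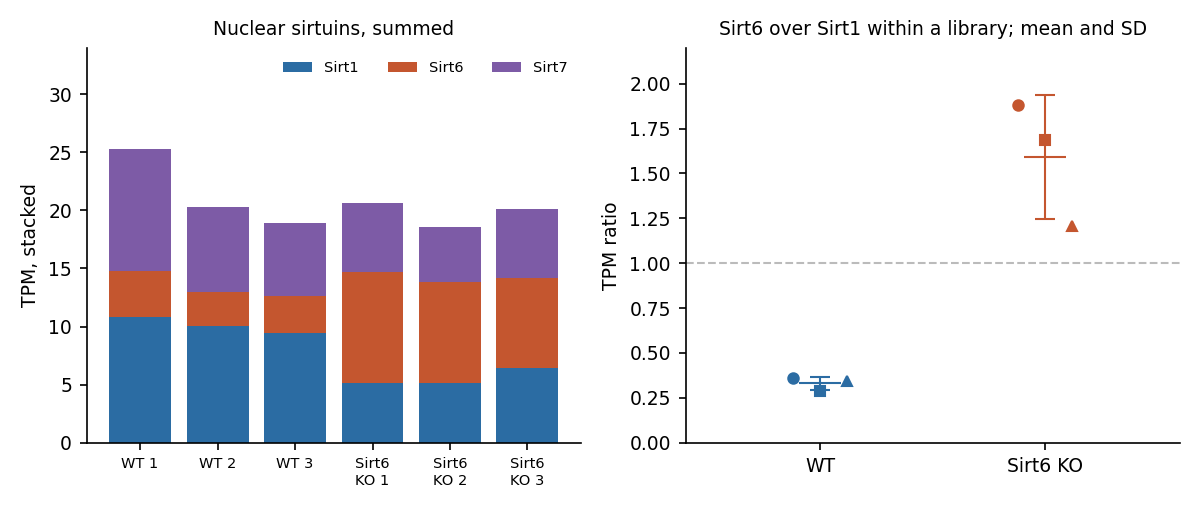
Left, TPM of Sirt1, Sirt6 and Sirt7 stacked for each library. Right, the TPM ratio of Sirt6 to Sirt1 within a library, with mean and SD of 3 libraries and a dashed line at 1. The sums overlap (18.9 to 25.3 TPM in WT, 18.6 to 20.7 TPM in Sirt6 KO) while the ratio lies below 0.4 in WT and above 1.2 in Sirt6 KO.

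*Sirt3* was higher in the 3 libraries with the most slow fiber transcripts than in the other 3, whichever their label. *Sirt3* was above 20 CPM in WT 1, WT 2 and *Sirt6* KO 2, the libraries whose slow markers summed to 3570, 2944 and 2099 CPM. It was at 12.9, 17.0 and 18.2 CPM in WT 3, *Sirt6* KO 1 and *Sirt6* KO 3, whose slow markers summed to 132, 359 and 500 CPM. Among these 3 the order of both was the same, whereas among the slow-rich 3 it was reversed, with *Sirt3* at 20.9, 21.7 and 23.5 CPM. *Sirt5* followed the markers only in part. It was highest in *Sirt6* KO 2 and WT 2 and lowest in WT 3, but at 7.08 CPM in WT 1, the library with the most slow transcripts, it was level with *Sirt6* KO 1 and below *Sirt6* KO 3. *Sirt6* and *Sirt1* did not follow this pattern, since WT 3 resembled WT 1 and WT 2 in both. With the slow marker level as a covariate, an alternative chosen after seeing the data, the standard error of *Sirt3* was 0.09 in place of 0.22 and that of *Sirt5* 0.16 in place of 0.21. The log2 fold change of *Sirt3* was then 0.21 (adjusted p = 0.115 by edgeR), and those of *Sirt6* and *Sirt1* were 1.46 and -0.77. In whole muscle, fewer fibers of a type and less RNA per fiber cannot be told apart.

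**Figure D4:**
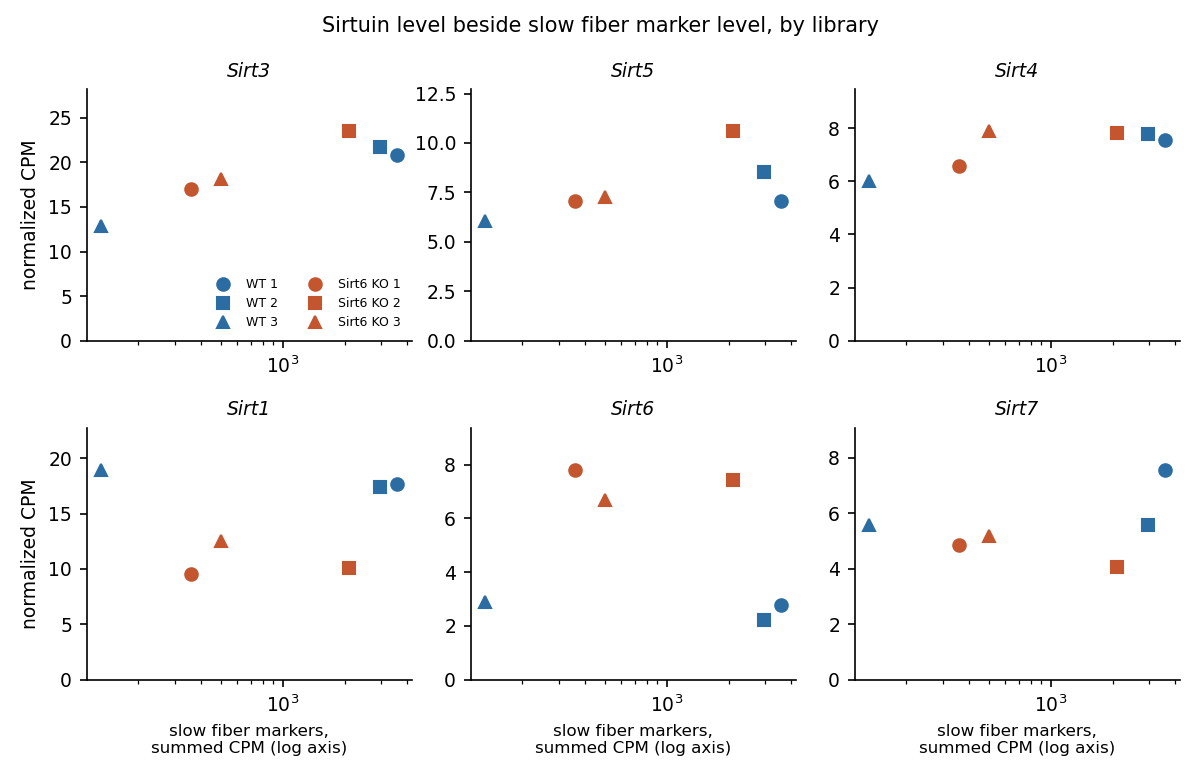
Normalized CPM of 6 sirtuins (vertical axes, from 0) against the summed CPM of 7 slow fiber markers in the same library (horizontal log axis), with 1 point per library. Sirt3 goes from 12.9 CPM in WT 3, the library with the fewest slow transcripts, to between 20.9 and 23.5 CPM in the 3 libraries with the most, whichever their label. Sirt1 and Sirt6 separate by label instead.

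The base composition of the transcripts differed between the sirtuins. *Sirt1* and *Sirt6*, the called members, lay at its low and high ends. Between them lay *Sirt3* (46.4% GC), *Sirt5* (47.4%), *Sirt4* (53.5%), *Sirt2* (54.2%) and *Sirt7* (55.6%). Their log2 fold changes were 0.08, 0.20, 0.07, -0.02 and -0.41 in that order. Whether base composition caused these differences was not tested. The longest *Sirt1* transcript had a GC content of 44.0%, the lowest of the 7, and that of *Sirt6* 58.4%, the highest, around a median of 49.8% over the genes tested. With the trend of counts over GC content removed in each library, *Sirt6* kept a log2 fold change of 1.23 (adjusted p = 0.0224 by edgeR). *Sirt1* then had -0.56 (adjusted p = 0.0519), so its call was lost. *Sirt7*, at 55.6% GC, moved away from 0 to -0.61 (adjusted p = 0.0872).

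The window of 250 bases before each RefSeq start site was searched on both strands for motifs of factors active in muscle. There were 9 windows, with each of the 7 sirtuins having a window. Not all of them lay outside the gene. The only window of *Sirt4*, from 115484298 to 115484547, lay within the gene, so the bases before its outer 5′ end were not searched. A window of *Sirt3* and a window of *Sirt6* also lay within the gene. The window of *Sirt5* and the other window of *Sirt6* reached into it. The full cAMP response element TGACGTCA was in none of them, and in 1.55% of the 32851 windows of all genes. The E-box CACGTG was in the *Sirt1* window alone (6.02% of all windows), the estrogen-related receptor half-site TGACCTT in the *Sirt5* window alone (4.08%), the short element TGACG in windows of 3 sirtuins (17.8%), the GC box GGGCGG in those of 6 (32.7%) and CCAAT in those of 3 (33.8%). The counts are of sirtuins, whereas the shares are of single windows. The sirtuin windows held between 12 and 39 CG pairs, beside a median of 6 over all windows. Their GC content lay between 48.8% and 79.2%, beside a median of 52.4%. A match is a run of letters and not a shown binding site. The *Sirt1* and *Sirt5* sequences are printed because *Sirt1* was the paralog that fell and *Sirt5* held the half-site; both stop short of the annotated gene. They are 5′ to 3′ on the strand of the gene, from RefSeq on GRCm38.p6, with motif matches on either strand in capitals.
Sirt1, chr10:63339051-63339285, minus strand: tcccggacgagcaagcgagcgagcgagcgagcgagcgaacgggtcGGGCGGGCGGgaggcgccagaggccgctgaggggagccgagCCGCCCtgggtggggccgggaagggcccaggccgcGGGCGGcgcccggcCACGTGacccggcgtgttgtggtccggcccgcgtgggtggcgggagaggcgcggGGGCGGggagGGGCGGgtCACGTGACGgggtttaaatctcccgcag
Sirt5, chr13:43365285-43365388, plus strand: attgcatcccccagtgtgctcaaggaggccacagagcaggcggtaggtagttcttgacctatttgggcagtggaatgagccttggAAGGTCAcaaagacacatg
In the *Sirt1* sequence, some GC boxes lay upstream of both E-boxes and others lay between the E-boxes. The E-box nearer the start overlapped a TGACG match by its last bases. No CREB, Myc or receptor binding was measured in these libraries.

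Several sirtuins lie close to another gene. *Sirt6* and *Ankrd24* start 29 bases apart on opposite strands, yet *Ankrd24* was at 6.64, 6.45 and 8.99 CPM in WT and 8.85, 6.47 and 7.55 CPM in *Sirt6* KO, with overlapping groups and a log2 fold change of 0.05 (adjusted p = 0.874 by edgeR). No such increase was called for this gene, and the sign of the *Ankrd24* value turned under 6 of 16 alternatives. *Herc4*, a ubiquitin ligase gene that ends 1124 bases from the end of *Sirt1* on the opposite strand, moved in the same direction as *Sirt1*. It was at 44.8, 39.5 and 51.4 CPM in WT and 27.6, 23.2 and 23.7 CPM in *Sirt6* KO, without overlap. Its log2 fold change was -0.87 (adjusted p = 0.0138 by edgeR), and the call was lost without *Sirt6* KO 1 or without *Sirt6* KO 3. *Dnajc12*, on the other side of *Sirt1*, had -0.55 (adjusted p = 0.0487), and was not called with any library left out or with the GC trend removed (-0.36, adjusted p = 0.168). *Nfkbib*, which encodes the NF-κB inhibitor IκBβ and starts 108 bases from *Sirt2*, had 0.62 (adjusted p = 0.0403), called without WT 3 only among the fits with a library left out, and 0.37 (adjusted p = 0.178) with the GC trend removed. *Sirt3* starts 85 bases from *Psmd13* (0.20, adjusted p = 0.274), and its end overlaps *Ric8a* on the opposite strand (0.36, adjusted p = 0.0856). Without WT 3 both were called, *Psmd13* at 0.32 (adjusted p = 0.0338) and *Ric8a* at 0.47 (adjusted p = 0.0151). The sources do not state whether the counting used strand, so reads in that overlap cannot be assigned to either gene. *Bet1l*, beyond *Ric8a*, had 0.79 (adjusted p = 0.018), called without WT 3 or without *Sirt6* KO 2 among those fits. The other tested neighbours, *BC025920* beside *Sirt6*, *Rinl* beside *Sirt2*, *Pxn* beside *Sirt4*, *Gfod1* and *Nol7* beside *Sirt5*, and *Pcyt2* and *Mafg* beside *Sirt7*, had adjusted p-values between 0.0635 and 0.998.

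The zinc-dependent deacetylases share lysine substrates with the sirtuins but need no NAD+. Of *Hdac1* to *Hdac11*, 3 of 11 were called, each of them higher, against 7.85% of all genes called higher (median log2 fold change 0.32, beside -0.02 over all genes). *Hdac3*, the enzyme of the NCoR corepressor, was at 61.4, 64.4 and 81.9 CPM in WT, and at 143 and 113 CPM in *Sirt6* KO 1 and 3. *Sirt6* KO 2 lay between those and the highest WT library, so the groups did not overlap. Its log2 fold change was 0.78 (adjusted p = 0.029 by edgeR). The tubulin deacetylase gene *Hdac6* had 0.70 (adjusted p = 0.0323) and *Hdac11*, known as a fatty deacylase, 0.76 (adjusted p = 0.0465), each without overlap. The count was 5 without WT 3, 3 without *Sirt6* KO 2 and 0 without WT 1, WT 2, *Sirt6* KO 1 or *Sirt6* KO 3. Without *Sirt6* KO 2, *Hdac3* and *Hdac6* kept their calls and *Hdac11* did not (adjusted p = 0.0838 by edgeR). *Hdac11* was called in 6 of 16 alternatives. The count was 1 with the GC trend removed, where *Hdac3* kept its call.

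Genes of NAD supply and of sirtuin control were mostly below the threshold. Among 13 NAD enzymes, 1 was called, and it was higher, which is about the 7.85% of all genes (median 0.19). *Naprt*, which makes NAD from nicotinic acid, was at 3.07, 3.73 and 2.25 CPM in WT and 6.73, 6.42 and 5.94 CPM in *Sirt6* KO, a log2 fold change of 1.08 (adjusted p = 0.0218 by edgeR). *Nampt*, the main salvage enzyme, was at 210 ± 16.3 CPM in WT and 154 ± 64.0 CPM in *Sirt6* KO (SD, n = 3) and was not called. Among 10 regulators of sirtuins, 1 was called, and it was higher, again close to 7.85% (median 0.15). *Usp22*, a deubiquitinase known to stabilize Sirt1, was at 16.4, 14.5 and 17.6 CPM in WT and 24.9, 24.4 and 25.1 CPM in *Sirt6* KO, a log2 fold change of 0.61 (adjusted p = 0.0173). *Ccar2*, the Sirt1 inhibitor also named DBC1, was at 18.4 ± 2.65 and 24.7 ± 1.26 CPM (SD, n = 3) and was not called. Both lists had 4 genes called without WT 3. The NAD list had 1 without WT 2 and 0 without WT 1 or any *Sirt6* KO library, and the regulators had 1 without *Sirt6* KO 2 and 0 without WT 1, WT 2, *Sirt6* KO 1 or *Sirt6* KO 3.

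The known targets and partners of the nuclear sirtuins held the largest differences of the 6 gene lists. The list held 13 transcription factors and cofactors known to be deacetylated by nuclear sirtuins or to work with them. Of these, 1 was called higher and 2 lower, against 7.85% and 8.39% of all genes (median -0.14). *Ppargc1a*, which encodes PGC-1α, was at 764, 1703 and 515 CPM in WT and 45.6, 169.7 and 92.2 CPM in *Sirt6* KO, a log2 fold change of -3.28 (adjusted p = 0.0186 by edgeR). *Foxo1* was at 102, 184 and 72.9 CPM in WT and 30.9, 37.2 and 57.7 CPM in *Sirt6* KO, a log2 fold change of -1.51 (adjusted p = 0.0358). *Trp53*, which encodes p53, was at 11.0, 8.06 and 12.4 CPM in WT and 20.9, 16.8 and 18.3 CPM in *Sirt6* KO, a log2 fold change of 0.83 (adjusted p = 0.0257). For all 3, no *Sirt6* KO library overlapped a WT library. These are transcript levels and not the acetylation of the proteins. The count of this list was 6 without WT 3, 1 without *Sirt6* KO 2 and 0 without any other library.

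Of 8 glucose genes known to be repressed by Sirt6, among them *Slc2a1*, *Ldha*, *Pdk1*, *Pdk4* and *Tpi1*, 0 were called by edgeR in either direction (median -0.06). 2 of the 8 had an unadjusted p under 0.05, *Pdk1* at -0.30 and *Pdk4* at -0.76 on the log2 scale, and DESeq2 called 1 lower. 3 were called without WT 3. Of 12 tested substrates of the mitochondrial sirtuins, 1 was called, and it was lower, about the 8.39% of all genes (median -0.31), with *Cps1* left out by the filter on low counts. *Sod2*, the manganese superoxide dismutase that Sirt3 deacetylates, was at 393, 452 and 313 CPM in WT and 192, 280 and 221 CPM in *Sirt6* KO, a log2 fold change of -0.74 (adjusted p = 0.0426 by edgeR). *Sdha*, a subunit of complex II, was at 998 ± 163 and 995 ± 166 CPM (SD, n = 3). The count of this list was 4 without WT 3, 1 without *Sirt6* KO 2 and 0 without any other library. *Sod2* was called without WT 3 (adjusted p = 0.0145 by edgeR) but not without *Sirt6* KO 2 (adjusted p = 0.0543).

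**Figure D5:**
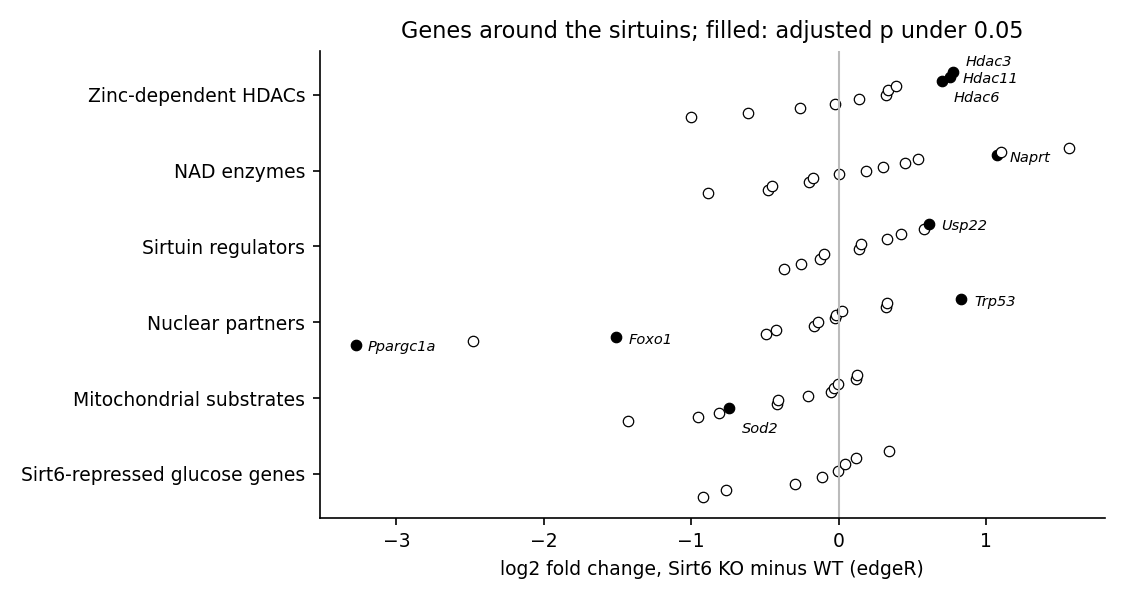
Log2 fold change (Sirt6 KO minus WT) of the tested genes of 6 lists, with 1 point per gene and filled points for an adjusted p under 0.05 in edgeR. Points within a list are ordered by value. The 3 filled deacetylases lie between 0.70 and 0.78, and Ppargc1a at -3.28 is the lowest point.

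The genes most alike to each sirtuin were taken by Pearson's r of the log2 level over the 6 libraries, among genes with a mean of at least 10 CPM. With 6 libraries such values are high for many genes, and those that separate the groups share that separation. For *Sirt6* they were *Mrps24* (r = 0.996), *Rnf41* (0.995) and *Klhl18* (0.995), and 256 genes were above 0.95. For *Sirt1* they were *Edrf1* (0.999), *Ccdc127* (0.996) and *Mnat1* (0.993), with 140 genes above 0.95. *Edrf1* followed *Sirt1* library by library, at 18.9, 18.5 and 19.7 CPM in WT and 13.0, 13.4 and 15.0 CPM in *Sirt6* KO. For *Sirt3* they were *Plbd2* (0.998), *Prkag1* (0.979) and *Mrpl14* (0.979), for *Sirt5* *Phb* (0.988), *Ndufb8* (0.985) and *Atad3a* (0.975), and for *Sirt2* *2310036O22Rik* (0.997), *Fam175b* (0.985) and *Mob2* (0.982). For *Sirt7* they were *Ssna1* (0.993), *Osgin1* (0.989) and *Slc38a9* (0.986). For *Sirt4* they were *Kdr* (0.98), *Cyp2d22* (0.97) and *Cfd* (0.967), with 5 genes above 0.95.

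*Kdr* and *Cfd* are markers of endothelial cells and adipocytes, so the marker lists were set beside the sirtuins. The 6 endothelial markers summed to 299, 345 and 166 CPM in WT 1, 2 and 3 and to 189, 208 and 200 CPM in *Sirt6* KO 1, 2 and 3, and the 7 adipocyte markers to 186, 259 and 124 CPM and to 163, 298 and 192 CPM. WT 3, where *Sirt4* was lowest, was also the lowest library in both sums. In the endothelial sums the other libraries did not follow the order of *Sirt4*. *Sirt4* was highest in *Sirt6* KO 3 and *Sirt6* KO 2, at 7.90 and 7.84 CPM. Their endothelial sums were below those of WT 1 and WT 2. In the adipocyte sums *Sirt6* KO 2, WT 2 and *Sirt6* KO 3 were the highest, as for *Sirt4*, though in another order. WT 1, *Sirt6* KO 1 and WT 3 came below them in the same order in both. The erythroid markers summed to between 46.6 and 297 CPM, the macrophage markers to between 23.8 and 77.5 CPM and the fibroblast markers to between 551 and 1013 CPM. No marker of the endothelial, adipocyte, erythroid, macrophage or fibroblast lists was called by edgeR, while 3 endothelial and 2 fibroblast markers had an unadjusted p under 0.05, and DESeq2 called 2 endothelial markers and 1 fibroblast marker lower. The part of these cells in the sirtuin levels was not tested.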

How the data were processed

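Groups and replicate numbers follow the labels. The authors obtained a whole-number read count per gene from StringTie and deposited it without normalization. They also deposited FPKM values, scaled to length and depth, and the deposited TPM values add up to nearly the same sum in every library. The table holds 24532 genes, 7342 of them without a count. The submitters' processing notes name bcl2fastq 2.20.0, FastQC 0.11.7, HISAT2 2.1.0, Bowtie2 2.3.4.1, StringTie 2.1.3b and mm10, whereas the reporting summary names STAR. The labels name a stranded library kit and the methods another TruSeq kit, and the strand setting of the counting is not given in the sources used here. The *Sirt6* flox line also differs between the methods and the reporting summary.

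The main test was edgeR 4.0.16 in R 4.3.3 (filterByExpr, TMM, quasi-likelihood fit on the group, Benjamini-Hochberg adjustment over 13801 genes, threshold 0.05). Standard errors were derived from the test statistic, and 95% intervals from the t distribution at 7.43 degrees of freedom. The common biological coefficient of variation was 24.1%. The test was checked on simulated counts. Alternatives were DESeq2 1.42.0, its size factors, no filter, at least 10 counts in every library, log2(TPM + 1) or quantile-normalized log2(FPKM + 1) or log2(FPKM + 0.1) in limma 3.58.1, the replicate number as a block, a lowess trend over transcript GC content removed per library (span 0.3, GC known for 96.2% of the genes tested), each library left out, and, chosen after seeing the data, the slow marker level as a covariate.

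The members and the gene lists were chosen with earlier results of these data known. Named genes are the 7 sirtuins, called genes of the lists and members given with values, the nearest or overlapping genes, and the 3 genes most alike to each sirtuin. Coordinates and promoter sequences are from RefSeq on GRCm38.p6, which is mm10. The result of 1 gene list is not reported here.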

Additional observations from a re-analysis of the deposited data

How the results depend on the processing

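*Sirt6* was higher in all 16 alternatives (log2 fold change 1.03 to 1.55), past the threshold in 14, and *Sirt1* lower in all 16 (-0.88 to -0.56), past it in 10. The other 5 sirtuins passed in none of 16, and *Sirt5* and *Sirt7* kept their sign in each. *Sirt2* turned to 0.01 with limma on either FPKM scale (0.0095 and 0.0097) and to 0.0422 without WT 3. *Sirt3* turned to -0.12 without WT 3 and -0.06 without *Sirt6* KO 2. *Sirt4* turned to -0.04 on the TPM scale (-0.0367), -0.0846 with the GC trend removed and -0.04 without WT 3 (-0.0377). *Ankrd24* turned to -0.043 (TPM), -0.19 (GC), -0.01 (slow marker covariate, -0.0106), -0.01 without WT 1 (-0.0076), -0.04 without WT 2 (-0.0355) and -0.0682 without *Sirt6* KO 1. The cause of these turns was not tested. With the GC trend removed, *Sirt1* was at -0.56 and past no threshold, leaving 0 sirtuins called lower and 1 higher, and 468 genes were higher and 499 lower. Called list genes then numbered 1 zinc-dependent deacetylase, 0 NAD enzymes, 1 regulator, 0 glucose genes, 0 mitochondrial substrates and 1 nuclear partner. DESeq2 called 1671 genes higher, 2 NAD enzymes, 2 regulators, 1 glucose gene, 3 mitochondrial substrates and 5 nuclear partners. The slow marker covariate gave 1968 genes higher and 1997 lower, with 2 NAD enzymes, 4 regulators, 1 glucose gene, 4 mitochondrial substrates and 5 nuclear partners. limma on log2(TPM + 1) called 1 deacetylase and 2 regulators. Both FPKM scales called 2 NAD enzymes and 0 mitochondrial substrates, and no filter on low counts left 0 of these substrates. With 1 library left out, the counts ranged from 0 to 1 for sirtuins higher and for sirtuins lower, 6 to 2363 for genes higher, 2 to 2219 for genes lower, 0 to 5 for deacetylases, 0 to 4 for NAD enzymes, regulators and mitochondrial substrates, 0 to 3 for glucose genes and 0 to 6 for nuclear partners. The log2 fold changes then ranged from -0.88 to -0.67 for *Sirt1* and from 1.37 to 1.55 for *Sirt6*, from -0.0539 to 0.0422 for *Sirt2*, from -0.12 to 0.22 for *Sirt3*, from -0.0377 to 0.1499 for *Sirt4*, from 0.0015 to 0.34 for *Sirt5* and from -0.48 to -0.24 for *Sirt7*. By normalized CPM in place of TPM, which favors long transcripts, *Sirt1* ranked 3 and *Sirt5* 4 in WT, and *Sirt1* 3, *Sirt4* 5, *Sirt5* 4 and *Sirt6* 6 in *Sirt6* KO.

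Libraries with the same replicate number correlated at -0.137, 0.336 and 0.22 in their deviations from the group means, and *Sirt6* KO 1 correlated best with WT 3, so the numbers are not shown to pair the animals. The fit with the replicate block called 904 genes higher and 1018 lower, gave *Sirt6* 1.48 (adjusted p = 0.0233 by edgeR) and *Sirt1* -0.76 (adjusted p = 0.026), and called 1 deacetylase, 2 NAD enzymes and 2 mitochondrial substrates. *Sirt6* in WT rested on 105 to 165 reads per library, the lowest counts of the 7 sirtuins, and each group on 3 animals.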
